A study of Homo sapiens with 2 samples.

Results

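KCTD16, ADARB2, DISP3, RGS6 and COL9A3 are 5 protein-coding genes that were described here together, out of 62704 genes counted, because they had been picked from these data as genes that rise together. They were thus chosen on their measured levels in these same libraries, and their levels are given as a description, without a test. They were found by gene name in both split-seq libraries of the series, and their counts were taken from barcodes with over 500 genes, over 1000 transcripts and at most 20% mitochondrial transcripts.

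The first library held single cells of brain organoids of the human embryonic stem cell line H9. It pooled control organoids (CO) made with a commercial cerebral organoid kit and sampled at days 45, 55 and 70, organoids dissociated to single cells at day 45 and reaggregated (DISS), sampled at days 48, 55 and 70, and organoids freed of Matrigel at day 13 and constrained in agarose (CONS), sampled at day 55. The second library held nuclei, which the labels call a control experiment and assign to Control/Dissociated/Embed, and which the study describes as nuclei of CO at day 45, from organoids frozen whole and from dissociated ones. Every organoid came from 1 cell line, and every barcode of a library carried the same sample name, so that neither condition nor day nor batch could be assigned to a barcode. In split-seq, barcodes are added in rounds on a plate, and the well of the first round, where samples are still apart, was the only subdivision of a library by source that the files gave. There were 48 such wells of cells and 12 of nuclei, and their conditions were not analysed here.

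KCTD16 encodes an auxiliary subunit that binds GABA-B receptors, the metabotropic receptors for the inhibitory transmitter GABA. ADARB2 encodes a brain double-stranded RNA binding protein of the adenosine deaminase family without known editing activity, and is widely used as a marker of a class of cortical interneurons. DISP3 belongs to the Dispatched and Patched family of transmembrane proteins with a sterol-sensing domain, RGS6 is a member of the R7 group of proteins that shut off G protein signals, and COL9A3 encodes a chain of type IX collagen, best known from cartilage.

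Among 1303455 barcodes of cells 20178 passed the limits, with 157306492 transcripts and a median of 2615, and among 197446 barcodes of nuclei 14228 passed, with 72162726 transcripts and a median of 3890. When each cell was thinned to 1000 transcripts, at least 2 of 9 markers of radial glia, the stem cells of the developing cortex, were found in 51.8% of them. Scrublet, a doublet caller, marked 0 barcodes in either library and so had not worked, and doublets were left in. The libraries shared 70784 barcode names, 99 of them among kept barcodes.

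On GRCh38, KCTD16 (ENSG00000183775) lies on chromosome 5 from 144170873 to 144485686 (plus strand), ADARB2 (ENSG00000185736) on chromosome 10 from 1177313 to 1737525 (minus strand) and DISP3 (ENSG00000204624) on chromosome 1 from 11479155 to 11537551 (plus strand). RGS6 (ENSG00000182732) lies on chromosome 14 from 71932429 to 72566530 (plus strand) and COL9A3 (ENSG00000092758) on chromosome 20 from 62816244 to 62841159 (plus strand). Each overlaps at least 1 gene on the other strand, and for COL9A3 that gene, TCFL5, had 3074 counts in cells and 1135 in nuclei against 2141 and 406 for COL9A3 itself. Whether the counting used strand is not given in the sources used here, so reads from such a pair may not be told apart.

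The bases in front of the start sites are shown because of PDK1, a gene of the hypoxia response. In cells it was among the 5 genes whose pattern was most like that of the members. The letters ACGTG, or CACGT read on the other strand, are only 1 form of those that factors of this response are known to bind. No other form was searched, so a window without these letters may still hold another form. In nuclei PDK1 was not among those 5, but it was a leading gene of a cluster with KCTD16 and ADARB2 past 2-fold. In RefSeq (GRCh38.p14), 4 of the 5 genes had 7 windows of 250 bases in all. Of these 3 held the letters, both windows of KCTD16 and 1 of RGS6, while 6501 of all 35116 windows (18.5%) did. The windows printed are those of KCTD16 at chr5:144170623-144170872 and chr5:144205141-144205390 (plus strand) and of ADARB2 at chr10:1737526-1737775 (minus strand), the pair found together most often, and the window of RGS6 that held the letters, at chr14:71931921-71932170 (plus strand). Each is read 5′ to 3′ with the letters in capitals.
KCTD16, first start: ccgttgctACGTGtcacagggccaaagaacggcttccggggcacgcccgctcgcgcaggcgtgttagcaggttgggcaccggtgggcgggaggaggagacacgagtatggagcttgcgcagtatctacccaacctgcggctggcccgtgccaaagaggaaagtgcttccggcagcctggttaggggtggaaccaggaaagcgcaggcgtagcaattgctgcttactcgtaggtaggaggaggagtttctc
KCTD16, second start: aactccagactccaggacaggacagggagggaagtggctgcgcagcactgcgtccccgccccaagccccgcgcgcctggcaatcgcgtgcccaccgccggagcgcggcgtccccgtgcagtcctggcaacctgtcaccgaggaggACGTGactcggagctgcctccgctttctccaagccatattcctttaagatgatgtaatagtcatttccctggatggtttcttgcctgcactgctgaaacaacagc
RGS6: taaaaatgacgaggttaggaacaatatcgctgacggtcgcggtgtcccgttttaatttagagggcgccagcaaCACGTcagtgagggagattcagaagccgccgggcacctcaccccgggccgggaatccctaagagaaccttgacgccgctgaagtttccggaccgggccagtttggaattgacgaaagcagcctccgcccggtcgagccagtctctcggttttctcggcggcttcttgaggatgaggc
ADARB2: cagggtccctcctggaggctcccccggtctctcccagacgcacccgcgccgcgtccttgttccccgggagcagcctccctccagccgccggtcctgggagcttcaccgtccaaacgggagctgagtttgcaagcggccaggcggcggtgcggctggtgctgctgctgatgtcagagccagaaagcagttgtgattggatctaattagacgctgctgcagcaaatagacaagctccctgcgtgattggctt
The letters began 242 and 105 bases before the start of KCTD16 and, for RGS6, 177 bases before the RefSeq start that follows its window, which lies upstream of the gene start given above. They were not in the windows of ADARB2 and DISP3 or in the other windows of RGS6. A match of 5 letters is a description of the sequence and not a site. In cluster 2 of cells, described below and led by PDK1 among others, KCTD16 was at 3.39-fold and RGS6 at 0.362-fold. ADARB2 was at 3.21-fold there and DISP3 at 1.57-fold. A link between the letters and the levels was not tested.

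The levels of the 5 genes over the libraries were low, and ADARB2 gave 48.2% of their counts in cells and 55.2% in nuclei, more than any other member. Levels are counts per 10000 transcripts, summed over barcodes, with exact Poisson 95% intervals, and they are not corrected for gene length and so are not compared between genes. These intervals, and the binomial ones for shares, cover counting error only, and the SD between sub-libraries, which are parts of 1 pool of barcoded cells, is a technical spread. In cells KCTD16 was at 1.17 (1.15 to 1.19; SD 0.0666, n = 8 sub-libraries) from 18430 counts. ADARB2 was at 2.78 (SD 0.183) from 43746 counts, and DISP3 at 1.33 (SD 0.0758) from 20869. RGS6 was at 0.359 (SD 0.0608) and COL9A3 at 0.136 (SD 0.0126), from 5651 and 2141 counts. The sum of the 5 was 5.77 in cells and 4.25 in nuclei. In nuclei the same genes were at 0.730, 2.35, 0.820, 0.296 and 0.0563 in that order, and each was lower than in cells, RGS6 by less than its SD between sub-libraries (0.0794 in nuclei, n = 2). The libraries differ in the organoids sampled as well as in the RNA measured. COL9A3 rested on 406 counts in nuclei, at most 4 of them in 1 barcode, whereas 1 nucleus held 187 of the 2135 counts of RGS6.

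Barcodes far below the limits, with 10 to 100 transcripts, also held the 5 genes, in cells at levels close to those of kept barcodes for ADARB2 and DISP3. In 1022725 such barcodes of the cell library KCTD16 was at 1.40 per 10000, ADARB2 at 2.95, DISP3 at 1.27, RGS6 at 0.473 and COL9A3 at 0.123. In 167580 such barcodes of the nuclei library they were at 0.755, 2.34, 0.570, 0.393 and 0.0397. Kept over low barcodes gave 0.759 (RGS6) to 1.11 (COL9A3) in cells, and in nuclei 0.754 for RGS6, 0.967 for KCTD16, 1.00 for ADARB2, 1.42 for COL9A3 and 1.44 for DISP3. Detection of a single transcript of these genes in a kept barcode can therefore not be told apart from free RNA, and the comparisons of levels that follow use sums over groups of barcodes. The same limit holds for the shares of barcodes with a gene and for the pairs of genes given further on.

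In cells, the summed level of the 5 genes was high in a few first-round wells. The sum of the 5 ranged from 1.69 per 10000 in well A10 to 20.2 in well B3, with a median of 4.13 over 48 wells. After B3 came C2 at 18.98, C5 at 17.4, C4 at 17.2, B2 at 14.98, C3 at 14.8 and D3 at 11.9. The next were B12, B1, C1, A12 and D2, at 10.8 to 7.57, so that the 12 highest wells were neighbours in plate order: A12 to B3, B12 to C5, and D2 with D3. The first 7 of these wells held from 79 kept barcodes (C2) to 1274 (D3).

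**Figure D1:**
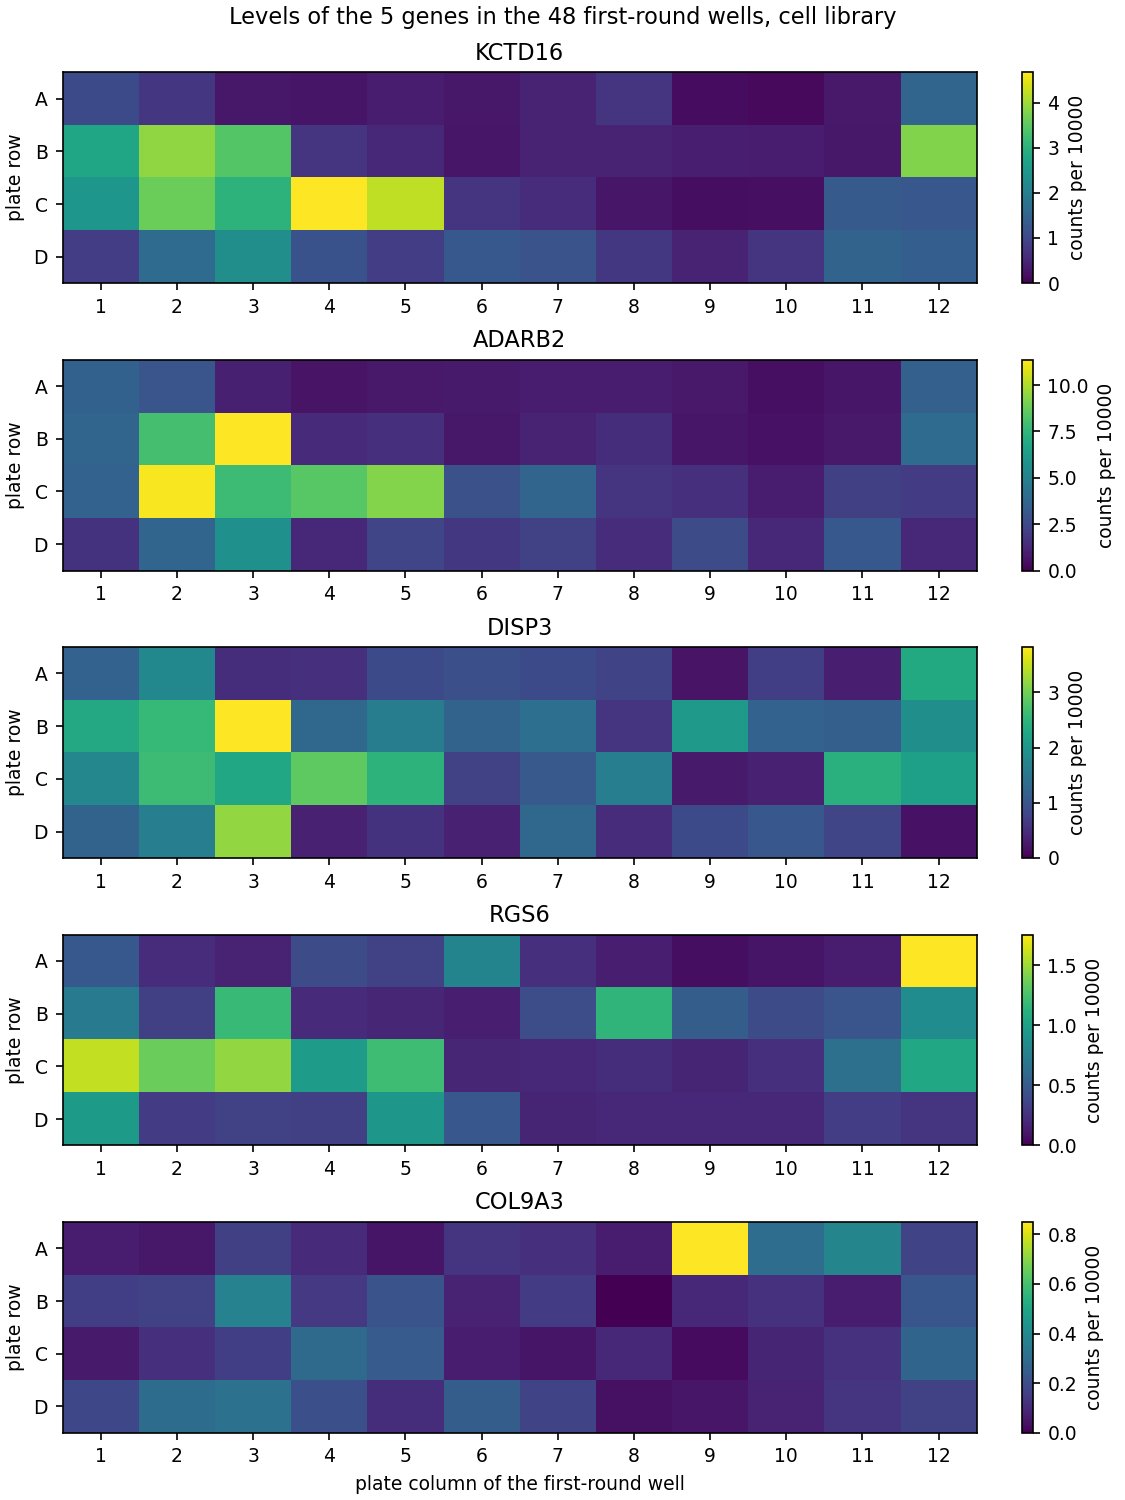
Level of each of the 5 genes (counts per 10000 transcripts, colour, each panel on its own scale) in the 48 first-round wells of the cell library, drawn by plate row (A to D) and column (1 to 12). KCTD16, ADARB2 and DISP3 were high in B2, B3, C2 to C5 and D3. RGS6 was highest in A12 and was high in B3 and C1 to C5, while COL9A3 had its highest value in A9.

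Taken gene by gene, the wells did not share 1 order. KCTD16 was lowest in A10 (0.111) and highest in C4 (4.67), with a median of 0.727. ADARB2 ran from 0.470 in A10 to 11.4 in B3 around a median of 1.70, and DISP3 from 0.186 in D12 to 3.82 in B3 around 1.20. RGS6 had its lowest value in A9 (0.0671) and its highest in A12 (1.75), around a median of 0.336. COL9A3 had 0 counts in B8, a median of 0.131 and its highest value, 0.850, in A9, a well where RGS6 was lowest. The lowest values of RGS6 and COL9A3 rest on few counts, and A10 held only 39 kept barcodes, the fewest of any well. B2, with a summed level of 14.98, held RGS6 at 0.330, close to its median, and C2 held COL9A3 at 0.118, below its median. Over the whole library KCTD16, ADARB2 and DISP3 gave 20.3%, 48.2% and 23.0% of the counts of the 5 genes. The sum over the library thus rests mostly on them. Its make-up differed between wells, as in A9, where COL9A3 was at 0.850 within a sum of 2.06.

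A gene was called where its level was past 2-fold of that in all other wells. All 5 were called in B3 (2.96-fold for KCTD16, 4.19 for ADARB2, 2.92 for DISP3, 3.34 for RGS6 and 2.82 for COL9A3), where 4.06% of the 16222 genes with at least 500 transcripts were higher past 2-fold. All 5 were also called in C4, against 1.08% of genes tested, and 4 in D3, where RGS6 was at 0.951-fold, against 0.45%. KCTD16, ADARB2 and RGS6 were called in C2 (5.42% of genes tested), C3 (3.54%) and C5 (0.986%), where DISP3 was between 1.73- and 1.98-fold. The median fold of the 5 genes was 2.96 in B3 and 3.60 in C5, and that of all genes tested 0.968 and 0.938. In 28 of the 48 wells no member was called, and in 7 wells (A12, B1, B12, B3, C3, C4 and C5) all 5 were above their library level. The share of all genes above their library level in a well was not taken, so the latter count cannot tell the members from other genes.

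The well pattern was the same in barcodes that held no more than 100 transcripts. The summed level of these low barcodes was 18.4 in B3, 17.7 in C5, 16.5 in C4, 15.8 in C2, 13.4 in C3, 13.1 in B2 and 10.9 in D3, against 1.79 in A10 and a median of 5.00. The 6 wells highest in kept barcodes were the 6 highest in low barcodes, in another order. This holds for the sum, and single genes are not compared here. Kept barcodes over low barcodes of the same well gave a ratio of 0.524 (A9) to 1.21 (C7), with a median of 0.909.

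**Figure D2:**
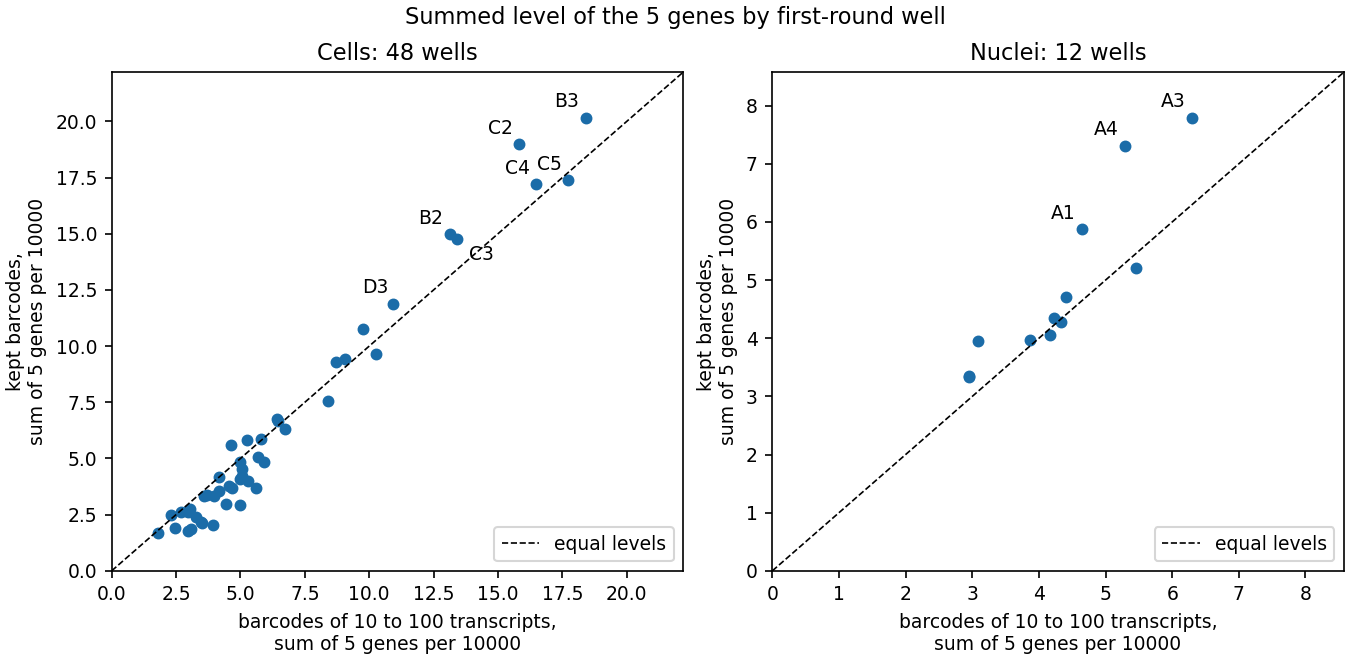
Summed level of the 5 genes (counts per 10000 transcripts) in kept barcodes against barcodes of 10 to 100 transcripts, 1 point a first-round well, cells left and nuclei right, with the line of equal levels dashed. The wells B3, C2, C4 and C5 lie above 15 on both axes, and most other wells of cells lie near the line below 7.5.

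Within these wells the summed level was high in barcodes of each of 3 marker classes. Barcodes were put in a class by at least 2 markers of its list among 1000 thinned transcripts, so that 1 barcode could be in several classes, and wells with at least 20 such barcodes were kept. As low barcodes of the same wells had like summed levels, expression in a cell type cannot be told apart from free RNA here. In radial glia marker barcodes the summed level was 16.5 in C4 (160 barcodes), 16.5 in C5 (316), 14.5 in B2 (102), 14.0 in B3 (77) and 10.5 in D3 (815), against a median of 3.63 over 46 wells. In barcodes with excitatory neuron markers, the neurons of the cortical layers, it was 21.5 in B3 (60 barcodes), 20.1 in C4 (85), 18.4 in C5 (173) and 14.7 in D3 (401), against a median of 7.85 over 32 wells. Dividing barcodes, by genes of mitosis, gave 17.5 in C4 (22 barcodes), 12.8 in C5 (43) and 9.45 in D3 (248), against a median of 3.18 over 31 wells. Each of these wells was above the median in each class for which it had enough barcodes.

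The wells also differed in other measures. The 7 choroid plexus markers, genes of the epithelium that secretes cerebrospinal fluid, summed to between 1.22 (C3) and 3.64 (B3) per 10000 in B2, B3, C2, C3, C4, C5 and D3, while the median well was at 13.2 and the highest, D6, at 87.0. The 9 excitatory neuron markers summed to 10.7 (C4) to 14.2 (B2) in these 7 wells and to 8.58 in the median well. The median mitochondrial share of their barcodes was 0.580% (C3) to 1.68% (D3), against 2.19% in the median well. Like values were also found in wells with a lower sum. D7 had choroid plexus markers at 2.79, excitatory neuron markers at 10.9 and a mitochondrial share of 0.993%, with a summed level of 5.08. A10 had the lowest choroid plexus value, 1.07, and also the lowest sum, 1.69. The part of these differences in the well pattern was not tested, and condition, day, batch and well cannot be told apart here.

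By cluster, the 5 genes were high together in 1 cluster of cells, which came mostly from a few wells. Of 24 clusters, built on the 2000 most variable genes without the 5 members, 17 had no member past 2-fold of all other kept barcodes, 4 had 1, 2 had 2 and cluster 19 had all 5. A cluster against the rest is a description and no test, since all cells were clustered together. Cluster 19 held 594 barcodes with a median of 7220 transcripts, and apart from the members its leading genes were ENSG00000278254, LINC01965 and PPP1R17. It kept 2 of 6 intermediate progenitor markers, EOMES and PPP1R17, and so was given no cell type name.

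In cluster 19 KCTD16 was at 3.17 per 10000 (3.36-fold), ADARB2 at 6.81 (2.93-fold), DISP3 at 2.60 (2.20-fold), RGS6 at 0.700 (2.18-fold) and COL9A3 at 0.290 (2.44-fold), where 0.37% of genes tested were higher past 2-fold. KCTD16 had a transcript in 81.7% of these barcodes and ADARB2 in 92.1%. Each of the 5 was above the remaining barcodes in 8 of 8 sub-libraries. As these are parts of 1 pool and the genes were picked on these data, this is a description and no independent support. The share of all genes that did so was not taken. Against the other barcodes of the same wells, however, the folds were 1.13, 1.07, 1.06, 1.14 and 1.15. Well C5 gave 34.2% of the cluster, D3 28.6% and C4 10.6%, and in C5 the summed level was 17.4 inside the cluster and 17.3 outside it. Cluster 1, where KCTD16 and ADARB2 were also past 2-fold, was among the barcodes compared. It held 48.5% of the kept barcodes of C5 and 66.0% of those of D3.

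Cluster 1 was alike in its wells and lower in depth, with 1981 barcodes and a median of 1459 transcripts. KCTD16 was at 2.49-fold and ADARB2 at 2.12-fold there, with DISP3, RGS6 and COL9A3 between 1.53- and 1.94-fold, against 0.247% of genes higher past 2-fold. D3 gave 42.5% of its barcodes and C5 15.8%. Within the same wells its folds lay between 0.933 (COL9A3) and 1.09 (KCTD16), and all but that of KCTD16 were below 1 (ADARB2 0.949, DISP3 0.973 and RGS6 0.934). Cluster 19, with 31.5% of the kept barcodes of C5 and 13.3% of D3, was among the barcodes compared.

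In cluster 2, unlike in clusters 19 and 1, the folds of KCTD16 and ADARB2 stayed past 2-fold against the same wells. It held 957 barcodes, led by ENSG00000287001, ENSG00000257759, ADAM20, the glycolysis gene HK2 and PDK1. D7 (22.9%), D11 (18.4%) and D10 (10.0%) were its largest wells. KCTD16 was at 3.58 per 10000 (3.39-fold), ADARB2 at 8.09 (3.21-fold) and DISP3 at 2.03 (1.57-fold), where 3.49% of genes tested were higher past 2-fold. RGS6 was at 0.134 (0.362-fold) and COL9A3 at 0.0853 (0.615-fold). Against the same wells the folds were 3.17, 3.46, 1.48, 0.326 and 0.577 in this order. KCTD16 and ADARB2 were thus past 2-fold higher where RGS6 was past 2-fold lower, against 10.6% of genes tested that were lower, and neither DISP3 nor COL9A3 was called in cluster 2. In D11 the summed level was 15.8 inside the cluster and 4.18 outside it, in D7 9.95 and 3.57, and in D10 5.91 and 3.04. The gap differed between wells, from 9.59 inside against 9.41 outside in C1 and 3.24 against 2.52 in A7 to 45.2 against 15.2 in B3. The median mitochondrial share was 0.785% in cluster 2 and 1.12% in cluster 19, the lowest of the 24 clusters of cells, and 1.63% in cluster 1, and its part in these levels was not tested.

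**Figure D3:**
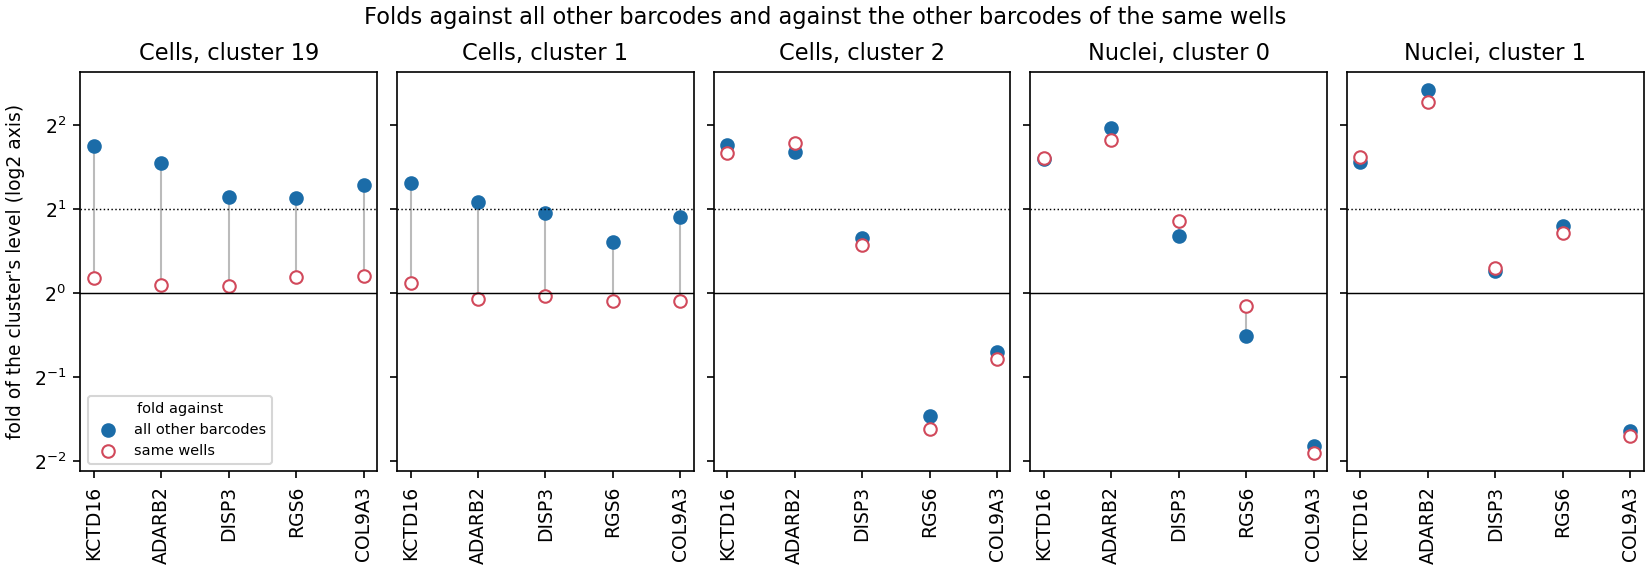
Fold of each gene in 5 clusters (log2 axis) against all other kept barcodes (filled) and against the other barcodes of the same first-round wells (open), with the dotted line at 2-fold. In clusters 19 and 1 of cells, each of which is in the other's comparison, the open points lie between 0.933 and 1.15. In cluster 2 of cells and in clusters 0 and 1 of nuclei they stay near the filled ones.

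Single members were high in other clusters of cells. DISP3 was at 3.40 (2.86-fold; 2.89-fold within the same wells) in cluster 0, where 1.8% of genes tested were higher past 2-fold. This cluster was led by NHLH1, EBF2 and EOMES, among them 2 intermediate progenitor markers, its excitatory neuron markers NEUROD6, SLC17A7, BCL11B and TBR1 were not among its top 10 genes, and it was given no cell type name. RGS6 was at 1.24 (3.83-fold; 2.18-fold within the same wells) in cluster 17, led by DOCK2 and ALDH1A2, with 12.7% of genes past 2-fold. KCTD16 was at 2.62 (2.24-fold; 3.802-fold within the same wells) in the 92 barcodes of cluster 20, of which well A8 gave 96.7%, with 9.39% of genes past 2-fold. COL9A3 was at 0.412 (3.06-fold, or 2.61-fold within the same wells, from 32 counts) in the cortical hem-like cluster 21, named from RSPO3, WNT2B and LMX1A, with 10.5% of genes past 2-fold, and DISP3 was near 0 there with 2 counts in 101 barcodes. In clusters 17, 20 and 21 a single call was thus near the share of all genes past 2-fold. Against the same wells only, ADARB2 was at 2.15-fold in the Cajal-Retzius-like cluster 16. COL9A3 was so at 2.11-fold in the dividing-like cluster 14. The share of all genes was not taken within wells.

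In nuclei, no cluster or well held the 5 genes high together. Of 19 clusters 12 had no member past 2-fold, 5 had 1 and 2 had 2, and COL9A3 was past 2-fold in none. Against the same wells, COL9A3 was at 2.09-fold in cluster 7 and 2.51-fold in cluster 9. Cluster 1, with 752 barcodes and led by NXPH1, GFRA1, EBF1, EBF3 and UNC5C, held KCTD16 at 1.96 per 10000 (2.96-fold) and ADARB2 at 10.2 (5.33-fold), against 5.0% of 11691 genes tested. DISP3 was at 1.20-fold there, RGS6 at 1.74-fold and COL9A3 at 0.319-fold. These are sums over a cluster that a finer clustering, given at the end, splits into parts with unlike levels of KCTD16. Cluster 0, with 918 barcodes and led by heat shock genes such as DNAJB1 and HSPH1 and with PDK1, LINC02649 and ENSG00000257759 among its top 10 genes, as in cluster 2 of cells, held KCTD16 at 2.03 (3.03-fold) and ADARB2 at 8.14 (3.90-fold), against 6.91% of genes tested. There DISP3 was at 1.61-fold, RGS6 at 0.698-fold and COL9A3 at 0.282-fold. Within the same wells KCTD16 and ADARB2 kept folds of 3.09 and 4.86 in cluster 1 and 3.05 and 3.55 in cluster 0.

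The highest levels of DISP3 and RGS6 in nuclei were in other clusters. DISP3 was at 4.66 (7.69-fold) in the excitatory neuron-like cluster 4, named from NEUROD6, BCL11B, TBR1 and GRIA2, with 3.66% of genes higher past 2-fold, and at 3.49 (4.76-fold) in cluster 16, led by ENSG00000228999, EBF2 and CNTN2, with 2.87%. RGS6 was at 5.67 (24.7-fold) in the 171 barcodes of cluster 18, led by the dorsal patterning genes PAX3 and WNT3, with 3.8% of genes past 2-fold. Only 36 of these barcodes held RGS6, and without the 1 nucleus of 187 counts its level was 3.58 (15.6-fold). KCTD16 was at 2.52 (3.97-fold) in cluster 14, led by genes of motile cilia such as TEKT1 and with 5 of 7 choroid plexus markers, against 9.79% of genes tested, and ADARB2 at 4.60 (2.08-fold) in the dividing-like cluster 10, against 3.83%.

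**Figure D4:**
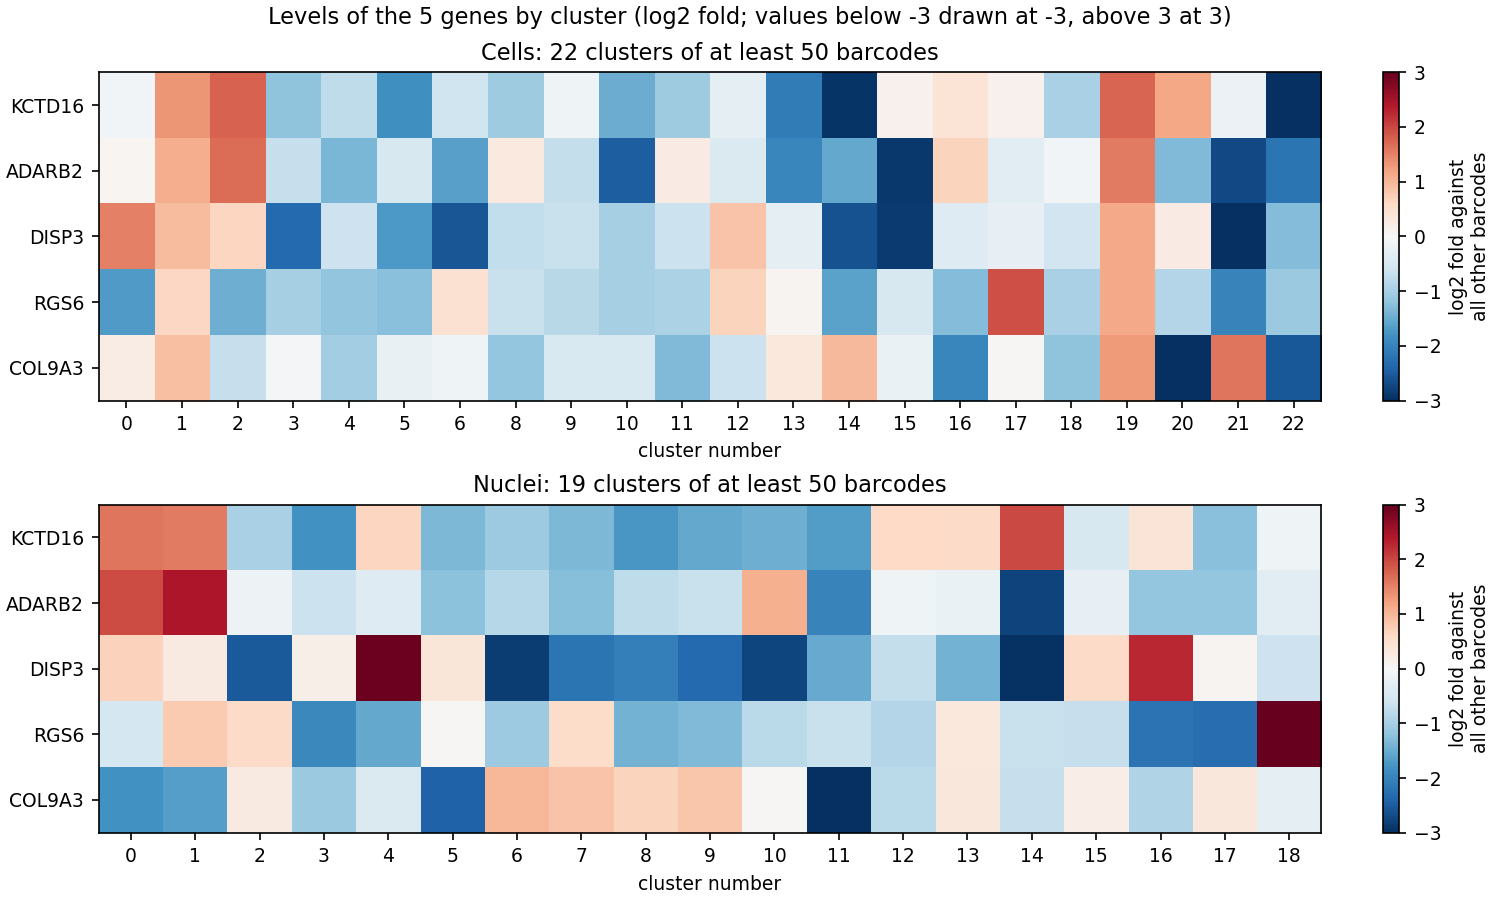
Log2 fold of each gene (rows) in each cluster of at least 50 barcodes (columns) against all other kept barcodes, cells above and nuclei below, red for higher and blue for lower, with values beyond 3 drawn at 3 and a level of 0 at the lower end. Cluster 19 of cells is the only column that is red past 2-fold in all 5 rows, and in nuclei the reddest cells of DISP3 (cluster 4) and RGS6 (cluster 18) lie in different columns.

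Over the 12 wells of nuclei the summed level ranged from 3.33 (A5) to 7.79 (A3), with a median of 4.32. ADARB2 was called past 2-fold in A3, at 5.97 per 10000, where 0.736% of genes tested were, and in A4, at 5.37, where 0.761% were. No other member was called in a well of nuclei, and 10 wells had none. In low barcodes the sum ran from 2.94 (A10) to 6.30 (A3). No well of nuclei had a member past 2-fold in these barcodes.

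Marker classes gave a second view of the cell types, without clusters. In cells with excitatory neuron markers (3896 barcodes) KCTD16 was at 1.43, ADARB2 at 3.55 and DISP3 at 2.18, and in those with radial glia markers (10448) at 0.898, 2.50 and 1.03. Choroid plexus marker cells (3123) held KCTD16 at 0.908, ADARB2 at 1.18 and DISP3 at 0.506. In smaller classes, KCTD16 was at 1.52 (1.35 to 1.71) in motile cilia marker cells (166). DISP3 was at 2.53 (2.20 to 2.89) in intermediate progenitor marker cells (133). In nuclei DISP3 was at 1.60 in excitatory neuron marker barcodes (1898) and at 0.479 in radial glia marker barcodes (5896). KCTD16 was at 0.706 and 0.399 in these classes, and higher in choroid plexus (1.60, 713 nuclei) and motile cilia (3.50, 104) marker barcodes. DISP3 was thus higher in neuron than in radial glia classes of both libraries. The inhibitory neuron class had only 22 nuclei, in which ADARB2 was at 25.8 (22.5 to 29.5), KCTD16 at 3.18 and RGS6 at 1.71, while DISP3 was at 0.245 from 2 counts and COL9A3 had 0 counts.

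The depth of a barcode set how often the genes were seen, but in cells hardly their level. In the shallowest class of cells, of at most 1500 transcripts, the summed level was 5.74 per 10000, and in those of over 10000 it was 5.65. The deepest over the shallowest class gave 0.901-fold for KCTD16, 0.986 for ADARB2, 1.09 for DISP3, 0.915 for RGS6 and 1.01 for COL9A3, none past 2-fold, where 1.59% of genes were in either direction. In nuclei ADARB2 was at 3.76 per 10000 in the shallowest class and 1.92 in the deepest (0.511-fold), and RGS6 was at 0.173 in the shallowest class and 0.388 in the deepest (2.24-fold), where 6.87% of genes were past 2-fold in either direction. This call rested on the 1 nucleus of 187 RGS6 counts, and without it the deepest class was at 0.295 (1.71-fold). No other member was past 2-fold, but ADARB2 was at 0.499-fold without the nucleus with its highest count, of 95.

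At equal depth, few barcodes held more than 1 of the 5 genes. After each cell was thinned to 1000 transcripts, 12881 cells had none of the 5, 5730 had 1, 1353 had 2, 205 had 3, 9 had 4 and 0 had all 5. At least 2 were found in 1567 cells, or 7.77% (7.40 to 8.14; SD between sub-libraries 1.12, n = 8), and without thinning in 30.5%. In nuclei at least 2 were found in 451, or 3.17% (2.89 to 3.47; SD 0.118, n = 2), and without thinning in 14.8%. By depth class the thinned share in cells stayed between 6.95% and 8.11%, while the unthinned one climbed from 10.2% to 68.8%.

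The thinned share was highest in the wells and clusters already named. In well C5 36.6% (32.9 to 40.4) of cells held at least 2 of the 5, in C4 33.4%, in B3 27.5%, in C2 22.8%, in D3 21.98% and in B2 21.9%. Cluster 19 had a share of 31.3%, cluster 1 of 23.6% and cluster 2 of 19.7%. Among nuclei, cluster 0 had 10.2%, cluster 1 9.44% and cluster 4 8.77%.

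In cells, 8 of the 10 pairs were found together more often than the product of their shares, 4 with an interval above 1. The share of all gene pairs above 1 was not taken. For the pairs of KCTD16, ADARB2 and DISP3 the excess was smaller within wells and also within clusters. As the genes were picked because they rise together, the ratios are a description. KCTD16 and ADARB2 were both in 649 thinned cells, where 394 were expected, a ratio of 1.65 (1.52 to 1.78). With shares taken within clusters the ratio was 1.21, within wells 1.20, and within each cluster of each well 1.09 (1.00 to 1.17). KCTD16 with DISP3 went from 1.49 to 1.12 within wells and 1.10 within clusters, and ADARB2 with DISP3 from 1.40 to 1.10 and 1.13. The median of the 10 pairs was 1.21 over the library, 1.06 within clusters, 0.971 within wells and 1.01 within both. RGS6 and COL9A3 were together in 9 cells (ratio 0.963, 0.440 to 1.83), too few to tell an excess from its absence.

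In nuclei 6 of the 10 pairs were above the product of their shares, 3 with an interval above 1, and 1 pair had an interval below 1. The ratios of KCTD16 with ADARB2 and RGS6 were kept within wells. KCTD16 with ADARB2 was at 1.65 (1.42 to 1.91) over the library, 1.58 within wells and 1.28 within clusters. KCTD16 with RGS6 was at 2.02 (1.31 to 2.99) from 25 nuclei, 2.01 within wells and 1.54 within clusters. KCTD16 and COL9A3 were found together in 0 nuclei where 3.96 were expected (ratio up to 0.932). The median of the 10 pairs was 1.18 over the library, 1.21 within wells and 1.20 within clusters.

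**Figure D5:**
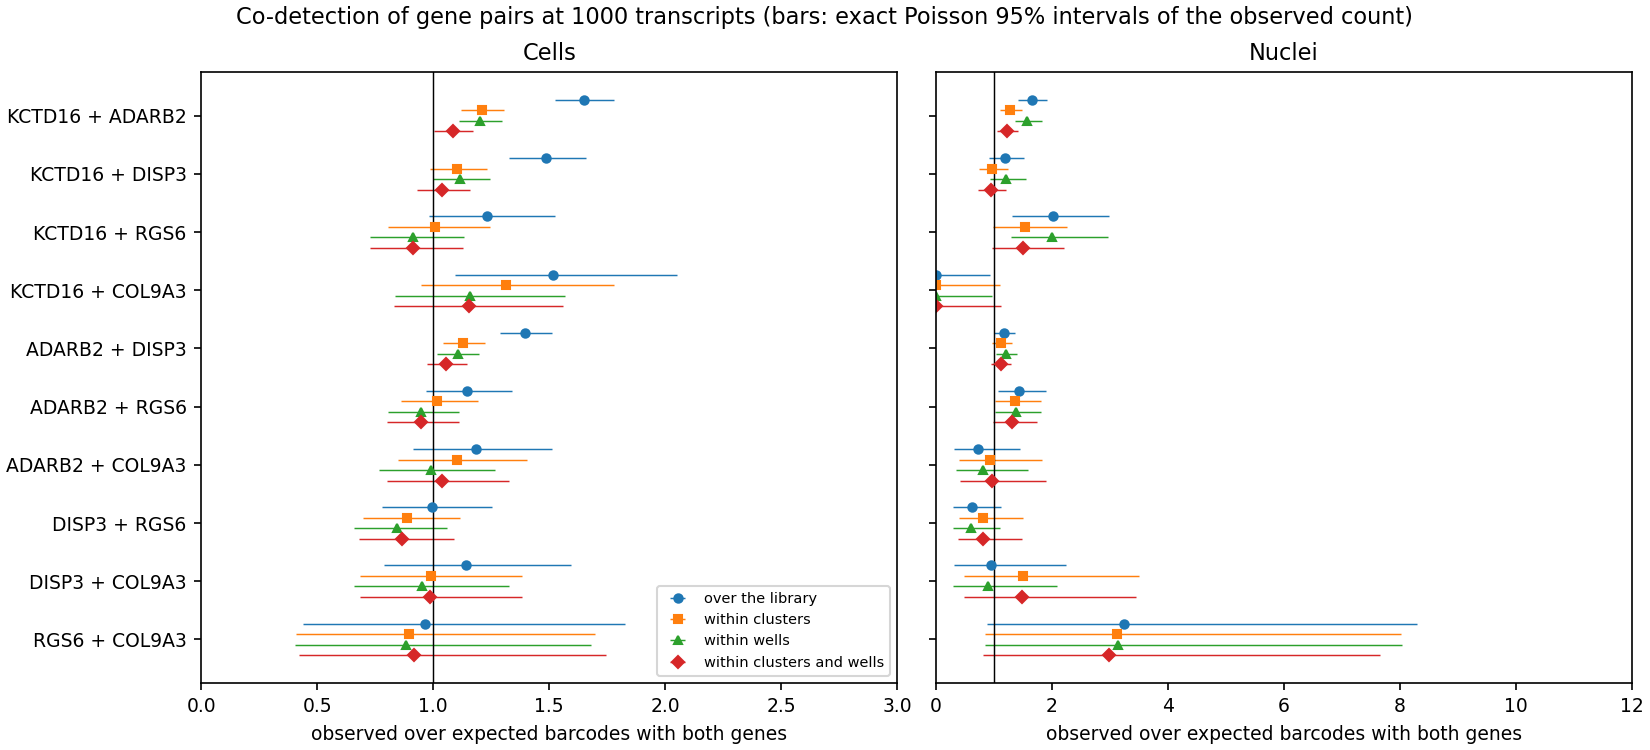
Ratio of observed to expected barcodes with both genes of each of the 10 pairs, at 1000 transcripts a barcode, cells left and nuclei right, with shares taken over the library, within clusters, within wells and within both, and bars for exact Poisson 95% intervals of the observed count. In cells the pairs of KCTD16, ADARB2 and DISP3 move from 1.40 to 1.65 over the library toward 1 within wells, and in nuclei the pairs with COL9A3 have the widest bars.

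The genes whose profile over clusters was most like the mean of the 5 were, in cells, PDK1 (Pearson r = 0.871 over 24 clusters), HIF1A-AS3 (0.865), LMO1 (0.850), BHLHE22 (0.845) and ADGRB2 (0.844). In nuclei they were CRTC3-AS1 (0.810 over 19 clusters), EBF1 (0.792), ZCCHC14 (0.787), LMO1 (0.782) and KCNH1 (0.773). Clusters of a library share its wells and its depth, and these values are descriptions. Each member against the mean of the other 4 gave 0.587 for KCTD16, 0.719 for ADARB2, 0.555 for DISP3, 0.568 for RGS6 and 0.147 for COL9A3 in cells, and between -0.384 (COL9A3) and 0.382 (KCTD16) in nuclei. COL9A3 followed the other members least in both libraries.

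The partners of the 5 proteins were listed by the complex or family they belong to, and in cells most were within 2-fold where the members were high. In cluster 19 none of 26 tested partners was higher past 2-fold. Only 0.37% of genes tested were higher past 2-fold there, so the count cannot tell partners from other genes. Of the partners 5 were lower past 2-fold, where 4.51% of genes tested were. These were the GABA-B subunits KCTD8 (0.250-fold) and KCTD12 (0.317), the hedgehog receptor PTCH1 (0.272), PTCHD1 (0.310) and the collagen COL2A1 (0.0656). In cluster 6, which had choroid plexus markers, KCTD8, KCTD12 and PTCHD1 were at 6.72-, 8.01- and 7.59-fold. COL2A1 was at 7.09-fold in the choroid plexus-like cluster 15 and PTCH1 at 2.58-fold in cluster 16. Folds of partners against the same wells were not taken. In cluster 2, 2 of 26 were higher, the potassium channel KCNJ9 (2.38-fold) of the GABA-B list and RGS7BP (2.04-fold), which anchors R7 proteins at the membrane, against 3.49% of genes tested, and 5 were lower, KCTD12 (0.273), PTCH1 (0.488), COL9A1 (0.197), COL2A1 (0.0903) and SOX9 (0.394), where 10.6% of genes were. The medians of the 5 lists lay between 0.767- and 1.09-fold in cluster 19 and between 0.394- and 1.25-fold in cluster 2, beside 0.962- and 1.02-fold over all genes tested. COL9A1 forms the same collagen as COL9A3, which at 0.615-fold was not called there. ADAR and ADARB1, the editing enzymes of the ADARB2 family, were at 1.10- and 1.41-fold in cluster 2 and at 0.991- and 1.14-fold in cluster 19.

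In cluster 1 of nuclei KCTD16 and ADARB2 were high as sums over the whole cluster, and partners were not taken in its parts. There 3 of 5 tested GABA-B partners were higher past 2-fold, where 5.0% of genes tested were. They were GABBR2, a receptor subunit (2.04-fold), and the channels KCNJ3 (3.75) and KCNJ6 (2.92), while KCTD8 was lower (0.312). All 3 were higher still in the excitatory neuron-like cluster 11 (7.33, 4.20 and 5.10), where KCTD16 was at 0.311-fold and ADARB2 at 0.251-fold. Of the Dispatched and Patched list 3 of 6 were higher, DISP2 (2.55-fold), PTCH1 (2.62) and PTCHD1 (2.72). Each of them was higher still in another cluster, DISP2 in cluster 11 (4.62-fold), PTCH1 in cluster 18 (4.04) and PTCHD1 in cluster 13 (13.2). The medians of the 5 lists lay between 0.363-fold (collagen) and 2.04-fold (GABA-B), beside 0.923-fold over all genes tested. None of the 5 tested R7 partners and neither of the 2 tested editing genes was past 2-fold, and the 3 tested of the collagen list, COL9A1 (0.363-fold), COL11A1 (0.395) and SOX9 (0.322), were lower, where 9.7% of genes tested were.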

How the data were processed

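RNA was measured by split-seq (Parse Biosciences Evercode) in cells and nuclei of H9 organoids. The authors demultiplexed the reads with demuxFQ, allowing 1 mismatch, into 8 and 2 sub-libraries, and processed each with spipe and GRCh38. The deposited values are raw transcript counts per barcode and gene, unfiltered, from which barcodes were kept with over 500 genes, over 1000 transcripts and at most 20% mitochondrial transcripts. Kept barcodes numbered 20178 and 14228, with medians of 2615 and 3890 transcripts.

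The members and lists were chosen with earlier results of these data known. Each library was 1 sample, so no test was made and no p-value is given. Levels were counts per 10000 transcripts with exact Poisson 95% intervals, and shares had exact binomial ones. Folds were taken over 16222 and 11691 genes of at least 500 transcripts and called past 2-fold. Clusters were made with scanpy 1.11.5 (2000 variable genes without the members, 30 principal components, 15 neighbours, Leiden resolution 1) and named from at least 3 markers at 1.5-fold or more in at least 25% of barcodes, unless the 10 leading genes held more markers of another list or, in clusters of low depth, none of its own. Co-detection used barcodes thinned to 1000 transcripts. Genes named were the members, their partner lists, the 5 genes most alike over clusters (log2 of the level plus 0.05), the 5 leading genes of the cluster with the highest summed level, and naming markers. Other genes that lead a cluster, the fine clusters and the motif were chosen after values were seen. Scripts were tested on simulated data. Python 3.11.15, numpy 2.4.6, scipy 1.17.1 and pandas 2.3.3 were used. Alternatives covered depth, mitochondrial and doublet limits, wells, clustering, thinning and averaging.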

Additional observations from a re-analysis of the deposited data

Results flagged for a closer look

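Barcodes of 10 to 100 transcripts, which are outside the kept barcodes, held all 5 genes above the level that a count of 0 would allow (3 counts of the total). In cells KCTD16 was at 1.40 per 10000 transcripts, ADARB2 at 2.95, DISP3 at 1.27, RGS6 at 0.473 and COL9A3 at 0.123. In nuclei KCTD16 was at 0.755, ADARB2 at 2.34, DISP3 at 0.570, RGS6 at 0.393 and COL9A3 at 0.0397, the last from 26 counts. Kept barcodes over low barcodes ranged from 0.759 (RGS6) to 1.11 (COL9A3) in cells and from 0.754 (RGS6) to 1.44 (DISP3) in nuclei.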

How the results depend on the processing

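Of 180 comparisons of a main value with an alternative, 132 stayed within the spread (the SD between sub-libraries or the half-width of the counting interval, and for counts 1.5 times) and 48 moved; of 320 values of single genes 247 stayed, 72 moved and 1 reversed. The cause was not tested except where the setting itself changes what is counted. Alternatives within wells, in low barcodes, without well C5 or D3, without barcode names found in both libraries, without the barcode with a member's highest count and with at most 50000 transcripts were chosen after seeing the data.

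In cells the share with at least 2 of the 5 genes (7.77%) was 16.8% when thinned to 2000 transcripts and 30.5% without thinning, and 1.06% held at least 3 and 36.2% at least 1. The median pair ratio over the library (1.21) was 1.36 over 2000 transcripts, 1.65 without thinning, 0.971 within wells and 1.01 within clusters and wells, and within clusters (1.06) it was 1.22 and 1.28 under the first 2 of these. The largest summed fold of a cluster (2.78, cluster 19) was 3.00 without well D3, and against the same wells it was 2.58 in another cluster (2), with at most 2 members past 2-fold in place of 5, while cluster 19 was at 1.09. Against the same wells ADARB2 in cluster 1 reversed to 0.949-fold, and DISP3, RGS6 and COL9A3, not called there, also went from above 1 to 0.973, 0.934 and 0.933. Excitatory over radial glia marker cells (1.59) gave 2.00 with 3 markers. With a pseudocount of 0.5, 3 of the 5 most alike genes were kept in each library.

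In nuclei the summed level (4.25) was 4.16 over 2000 transcripts, 4.09 without the highest well and 4.66 as a mean over barcodes. The largest summed fold of a cluster (3.66) was 3.79 without high doublet scores, 3.52 without the highest well, 3.22 and 13.0 at resolutions 0.5 and 2, 3.34 with seed 1, 3.34 with members among the variable genes, 3.39 thinned before clustering, 4.21 as a mean over barcodes and 3.51 against the same wells. The pair ratio within clusters (1.20) was 1.24 without the highest well, 1.23 and 1.11 at resolutions 0.5 and 2, 1.18 with seed 1, 1.18 with members kept, 1.08 thinned before clustering, 1.02 thinned to 2000, 1.27 unthinned and 1.06 with another thinning seed. Over the library (1.18) it was 1.28 over 2000 transcripts, 1.04 thinned to 2000 and 1.37 unthinned. At least 2 genes (3.17%) were in 6.50% at 2000 transcripts and 14.8% unthinned, at least 3 in 0.211% and at least 1 in 25.5%. The highest well (7.79) was at 8.91 as a mean over barcodes and 6.30 in low barcodes, where 0 wells in place of 2 had a member past 2-fold. Excitatory over radial glia (1.55) gave 1.42 with 3 markers.

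No paired analysis was possible because each library is 1 sample. Shares of barcodes rest on depth and on free RNA, COL9A3 on few counts, and 1 barcode of cells held 648550 transcripts.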

Other observations

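A finer clustering (resolution 2) set apart 54 nuclei in which ADARB2 was far higher than in any other group described. It was at 50.7 per 10000 transcripts (47.2 to 54.5, from 766 counts), 22.6-fold of all other kept nuclei and 15.9-fold of the other nuclei of the same wells, where 6.40% of genes tested were higher than all other kept nuclei past 2-fold. These nuclei all came from cluster 1, were found in 9 of 12 wells, and were led by LINC01210, the transcription factor genes GATA3 and DMBX1, and GAD2, which with GAD1 makes GABA. GAD1 was in 81.5% of them, GAD2 in 61.1% and GATA3 in 29.6%. RGS6 was at 1.66 (5.65-fold, 25 counts), KCTD16 at 0.662 (0.908-fold), DISP3 at 0.795 (0.970-fold), and COL9A3 had 0 counts. This group was picked after its values were seen. Another group of 196 nuclei, 192 of them from cluster 1, held ADARB2 at 5.00-fold and KCTD16 at 0.988-fold. A group of 386 nuclei, 374 of them from cluster 1, held both high, ADARB2 at 3.54-fold and KCTD16 at 4.28-fold. Of genes tested, 3.43% and 6.03% were higher past 2-fold in these groups.

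In cells the finer clustering gave a cluster of 778 barcodes, 41.6% of them from 1 well, in which KCTD16 was at 3.47-fold, ADARB2 at 2.81, DISP3 at 2.28, RGS6 at 3.45 and COL9A3 at 2.46, where 0.758% of genes tested were higher past 2-fold. Against the same wells these folds were 1.13, 0.971, 1.11, 1.46 and 1.28. A second, of 289 barcodes with a median of 25327 transcripts and led by UPK2 and CA9, shared 279 barcodes with cluster 19. Its folds of 2.09 (RGS6) to 3.39 (KCTD16), where 0.432% of genes were higher past 2-fold, were 1.02 (DISP3) to 1.11 (KCTD16) against the same wells.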
